A study of Danio rerio with 6 samples.

Results

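The genes described here encode apolipoproteins and plasma proteins that zebrafish embryos make in the layer around the yolk: apoa1a, apoa1b, apoa2, apoa4a, apoc1, apoeb, apobb.1, tfa, ttr and itih2. A gene was included when the platform annotation gives one of these 10 symbols as the single symbol of a probe set. Of the 10, 8 were found, each with 1 probe set, among 15502 tested probe sets. The annotation gives no probe set the symbol apoa1b or ttr, and these 2 genes were not analysed here. The rule itself uses gene symbols and no measured values, but the genes were chosen with earlier results of these data known.

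The samples were 3 Ovo1 morphants, embryos in which a morpholino, an antisense oligomer that blocks translation or splicing of a transcript, targeted the zinc finger transcription factor Ovo1, and 3 controls. Each sample is total RNA of whole AB strain embryos at 12 h after fertilisation, with 6 somites, on 1 Affymetrix array. The sox10(7.2):gfp reporter, which marks neural crest, stands in the sample labels of the morphants alone, with controls named wild type there, whereas the design text gives it for both groups. The labels state neither whether controls were injected nor whether replicates are separate clutches. The p-values therefore reflect the scatter of these samples alone, part or all of which may be technical. Knockdown leaves the gene itself in place, and no probe set used here is named for an ovo gene, so the level of the target is not given.

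Zebrafish embryos live on yolk until they feed. The yolk syncytial layer, a multinucleate layer between yolk and embryo, packs yolk lipid into lipoprotein particles built on apolipoprotein B and loads them with small exchangeable apolipoproteins of the A, C and E families, and it also secretes proteins that the liver makes later, such as transferrin. Embryos were taken whole, so the arrays do not show in which cells a transcript lay, and fewer cells of a type cannot be told apart from less RNA per cell. No sequence of these genes or of the probes was given with the data, and none is shown.

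Median intensities were 136.18 to 147.57 on the morphant arrays and 132.73 to 154.08 on the control arrays. Precision is limited throughout by there being 3 arrays a group. Intensities are linear and in arbitrary units as the authors deposited them. Differences are on the log2(intensity + 16) scale after quantile normalization, and a gene is called where limma gives an adjusted p under 0.05 over all probe sets. Probe sets differ in how strongly they bind, so levels are compared between groups and not between genes. The readings of apoa1a, apoa2, apoc1, apoeb, apobb.1 and tfa stood above 97.3% or more of the probe sets on every array, in a range where a flattening of bright signals was not tested.

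The transferrin gene tfa and the inter-alpha-trypsin inhibitor heavy chain 2 gene itih2 were lower in morphants, with calls that ended in some settings. The genes apoa1a and apoeb differed little. The single gene with clearly higher readings in morphants was apoa4a, which did not pass the test. Of the 8 genes, 2 were called, both lower, against 5.72% of all tested probe sets called in either direction, 3.12% lower and 2.59% higher. The median difference over the 8 genes was −0.13, against −0.0014 over all tested probe sets, whose median absolute difference was 0.14. Of the 8 differences 6 were below 0, against 50.3% of all probe sets. Among the 6, apoa1a (−0.0066) and apoeb (−0.0057) were close to 0 and changed sign in some fits without 1 array. Morphant and control arrays did not overlap on normalized values in 4 of the 8 genes, against 26% of all probe sets. With the replicate number as a block, 4 of the 8 were called, 3 lower (tfa, itih2 and apoc1) and 1 higher (apoa4a), against 18.6% of all probe sets called in that fit. With 3 arrays per group the exact permutation test cannot go below p = 0.1.

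**Figure D1:**
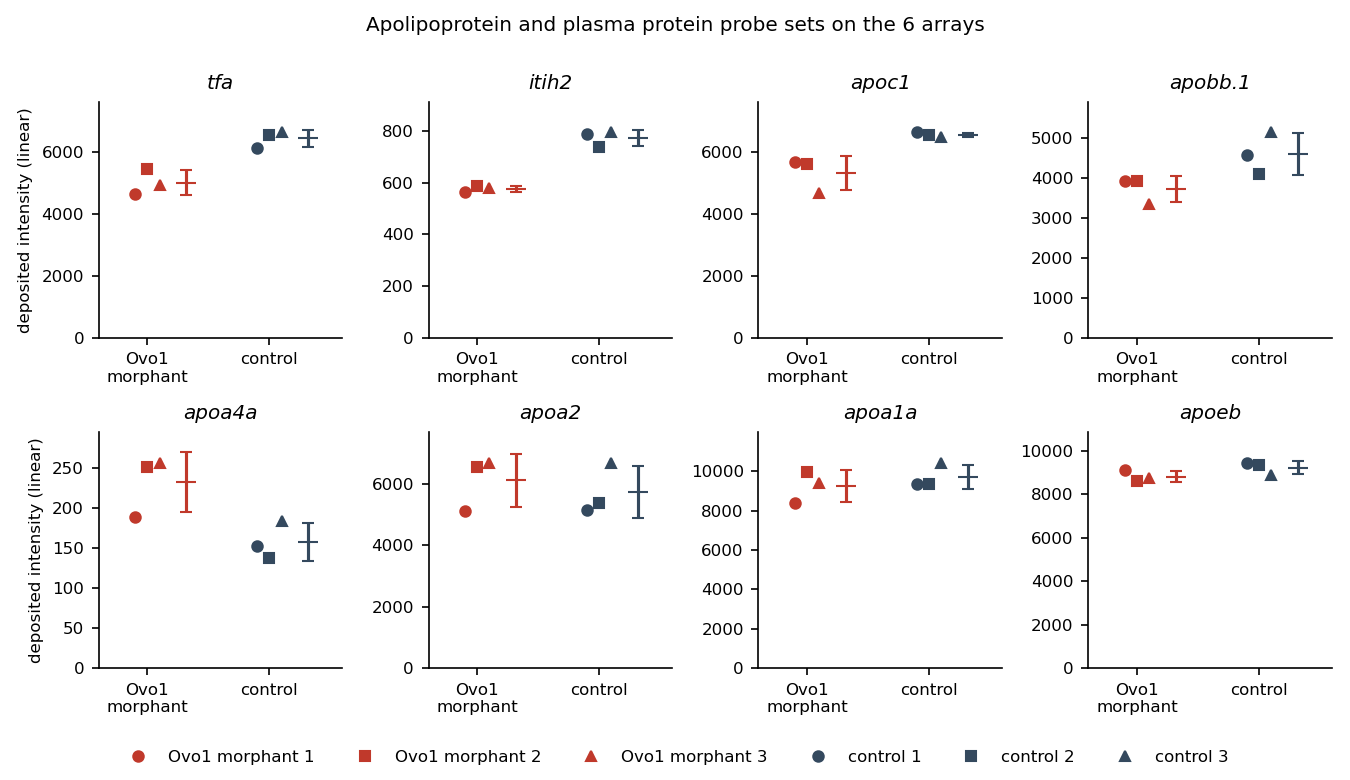
Deposited intensity (linear scale from 0, arbitrary units) of each of the 8 genes on every array, with Ovo1 morphants left of controls, marker shapes for the replicate numbers, and mean ± SD (n = 3) beside the points. All morphant points lie below all control points in tfa, itih2, apoc1 and apobb.1 and above them in apoa4a, while the groups overlap in apoa2, apoa1a and apoeb.

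The gene tfa encodes transferrin, the carrier that binds iron in plasma and delivers it to cells through transferrin receptors. Its intensity was 4651.11, 5463.24 and 4942.32 in morphants 1 to 3, against 6141.65, 6556.70 and 6640.54 in controls 1 to 3. The highest morphant lay below the lowest control. The means were 5019 ± 411 in morphants and 6446 ± 267 in controls (SD, n = 3 each), and tfa fell by 19.8% on the normalized scale (log2 −0.32 ± 0.05 SE, 95% interval −0.44 to −0.20, adjusted p = 0.0115). Differences between same-numbered arrays were −0.31, −0.31 and −0.34 (log2), a narrow spread. The call ended without control replicate 2 (adjusted p = 0.0670) or control replicate 3 (0.0710), with median centring (0.0625) and without the intensity trend in the variance (0.0845), and the direction was the same in each.

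Genes of iron handling were taken from a list of 36, of which 16 were measured. In this list 1 gene was higher and 0 lower, with a median difference of 0.06, and 3 were higher and 1 lower with the replicate block. Of all probe sets the main fit called 5.72% and the blocked fit 18.6%. The called gene was ncoa4, the cargo receptor that takes ferritin to lysosomes for iron release, with 1455.98, 1523.50 and 1613.27 in morphants, against 1113.48, 1097.57 and 1040.50 in controls (log2 +0.50 ± 0.09, adjusted p = 0.0127). Its call ended without 2 of the 6 arrays, control replicate 2 or control replicate 3 (adjusted p up to 0.0809). The ferritin heavy chain gene fthl27 read 10460 ± 380 in morphants and 9838 ± 389 in controls (+0.15 ± 0.04, adjusted p = 0.103, and 0.0307 with the block). The iron chaperone and RNA binding gene pcbp2 read 2560 ± 264 in morphants and 3119 ± 41.8 in controls (−0.22 ± 0.07, adjusted p = 0.116, and 0.0283 with the block). The gene aco1, whose protein is aconitase and, when short of iron, an iron regulatory protein, stood at −0.33 ± 0.13 (adjusted p = 0.201). In tfa, ncoa4, fthl27, pcbp2 and aco1 the groups did not overlap on normalized values. The iron genes named here were picked by smallest p, which favours groups without overlap. In the iron list 5 of the 16 measured genes had no overlap, against 26% of all probe sets.

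The gene itih2 encodes heavy chain 2 of the inter-alpha-trypsin inhibitor, a plasma protein whose heavy chains are transferred onto the matrix polysaccharide hyaluronan and stabilise it. Its intensity was 563.51, 585.20 and 577.57 in morphants 1 to 3, against 786.73, 736.36 and 793.50 in controls 1 to 3. Every morphant lay well below every control, and the spread within groups was small (575 ± 11 in morphants and 772 ± 31.2 in controls, SD, n = 3 each). On the normalized scale itih2 fell by 23.9% (log2 −0.39 ± 0.09, 95% interval −0.60 to −0.19, adjusted p = 0.0403), and same-numbered arrays differed by −0.38, −0.40 and −0.40. The call lies close to the threshold. It ended without any single array except Ovo1 morphant replicate 1 (adjusted p 0.103 to 0.177), with the values as deposited (0.0509) and with median centring (0.0594), while the difference stayed between −0.42 and −0.37 without each array in turn.

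Of 37 genes listed for the inhibitor and the hyaluronan matrix, 12 were measured, with 2 higher, 0 lower and a median difference of 0.08. Of all probe sets the main fit called 2.59% higher and 3.12% lower. The hyaladherin tnfaip6, whose protein transfers the inhibitor's heavy chains to hyaluronan in mammals, read 223.31, 225.11 and 254.18 in morphants, against 95.36, 102.53 and 110.58 in controls. Each morphant read more than 2-fold above its same-numbered control. The fitted difference was +1.08 ± 0.12 (adjusted p = 0.00156), and a second, dimmer tnfaip6 probe set gave +0.79 ± 0.10 (adjusted p = 0.00376). The hyaluronan receptor cd44a was also higher (+0.83 ± 0.11, adjusted p = 0.00426), with 52.9 ± 4.13 in morphants and 23.1 ± 1.89 in controls, dim readings at which the size of a fold depends on the pseudocount. Leaving out any 1 array ended neither call. The hyaluronan synthase has2 read 228 ± 16.9 in morphants and 183 ± 15.2 in controls without overlap (+0.30 ± 0.12, adjusted p = 0.190). It was named for a small p, which favours groups without overlap. In this list 3 of the 12 measured genes had no overlap, against 26% of all probe sets. The gene of the inhibitor's light chain bikunin, ambp, named after its values were seen, differed by −0.07 ± 0.15 with overlapping groups. Another heavy chain gene, itih3b.1, named after its values were seen, was dim and stood at +0.15 ± 0.12 with overlapping groups (adjusted p = 0.546). The proteoglycan gene vcanb was close to the floor of the arrays, at 7.73 ± 3.47 in morphants and 3.37 ± 2.58 in controls.

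Apolipoprotein B is the large, non-exchangeable scaffold of each particle, and apobb.1 is one of its zebrafish genes. Its intensity was 3912.49, 3913.16 and 3339.35 in morphants 1 to 3, against 4569.98, 4089.39 and 5128.27 in controls 1 to 3. As deposited, all morphants lay below all controls. After normalization morphant 1 lay above control 2, and the difference of −0.27 ± 0.10 (95% interval −0.48 to −0.05) did not pass the test (adjusted p = 0.155, and 0.0574 with the replicate block). Same-numbered arrays differed by −0.16, −0.08 and −0.56, so the arrays numbered 3 carried most of it. Without each array in turn the difference lay between −0.35 and −0.19 (adjusted p at least 0.0628).

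The paralogue apoba read 683.94, 696.35 and 772.35 in morphants, against 920.09, 845.52 and 1306.93 in controls. The groups did not overlap, and the difference of −0.46 ± 0.15 did not pass (adjusted p = 0.118) but did with the replicate block (0.0100). A second apoba probe set near the 25th percentile of the arrays differed by +0.07 ± 0.13 (adjusted p = 0.845), so the probe sets of apoba do not show the same change. Among 16 measured genes of a list of 43 for lipoprotein assembly, lipases and receptors, none was called (4 had an unadjusted p under 0.05 in limma). The blocked fit called 3, of which 2 were higher and 1 lower, against 18.6% of all probe sets called in that fit. The transfer protein gene mttp, whose product loads lipid onto apolipoprotein B, read 579.29, 425.75 and 419.16 in morphants, against 353.89, 352.76 and 345.51 in controls. Its morphants all lay above its controls, but morphant 1 stood apart, and the difference of +0.42 ± 0.16 did not pass (adjusted p = 0.172, and 0.0402 with the block). Without Ovo1 morphant replicate 1 the mttp difference was +0.24, and with each other array left out in turn it reached at most +0.52.

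Other genes of particle assembly and uptake named from that list were pla2g12b, needed for particle expansion in mouse and zebrafish, lrpap1, a chaperone of the LDL receptor family, and the endothelial lipase lipg. The pla2g12b readings were 652 ± 39.6 in morphants and 830 ± 76.7 in controls (−0.31 ± 0.10, adjusted p = 0.129, and 0.0320 with the block). Those of lrpap1 were 455 ± 12.7 in morphants and 567 ± 64.3 in controls (−0.29 ± 0.11, adjusted p = 0.168). Those of lipg were 106 ± 13.8 in morphants and 73.0 ± 12.7 in controls (+0.47 ± 0.14, adjusted p = 0.0842, and 0.0287 with the block). In each of the 3 the groups did not overlap, but they were named for a small p, which favours groups without overlap. In the list 6 of the 16 measured genes had no overlap, against 26% of all probe sets.

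The exchangeable apolipoproteins did not share 1 direction. The gene apoc1 encodes a small apolipoprotein that in mammals slows lipid exchange and particle uptake. Its intensity was 5665.04, 5610.15 and 4673.45 in morphants 1 to 3, against 6628.13, 6540.26 and 6484.17 in controls 1 to 3. The controls lay close together (6551 ± 72.6), all morphants were below them (5316 ± 557), and morphant 3 was the lowest. The difference of −0.26 ± 0.08 (95% interval −0.44 to −0.08) did not pass (adjusted p = 0.0975) but passed in the blocked fit (adjusted p = 0.0106) and without Ovo1 morphant replicate 1 (−0.33, adjusted p = 0.0188), and without Ovo1 morphant replicate 3 it was −0.17.

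The gene apoa4a encodes an apolipoprotein A-IV, a protein of lipid-rich particles that in mammals comes mainly from the intestine. Its intensity was 189.77, 251.50 and 257.21 in morphants 1 to 3, against 152.74, 137.40 and 184.56 in controls 1 to 3. The groups did not overlap, though morphant 1 lay just above control 3. The means were 233 ± 37.4 in morphants and 158 ± 24.1 in controls (SD, n = 3 each), a 1.42-fold difference on the normalized scale (log2 +0.51 ± 0.13, 95% interval 0.21 to 0.80). The adjusted p was 0.0614, and it was 0.0106 with the replicate block, 0.0483 with dim probe sets left out, 0.0497 without the intensity trend and 0.0185 without Ovo1 morphant replicate 1. Same-numbered arrays differed by 0.37, 0.67 and 0.48.

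The gene apoa2 encodes a structural apolipoprotein of high density particles. Its intensity was 5111.71, 6539.75 and 6664.63 in morphants 1 to 3, against 5129.36, 5363.16 and 6681.38 in controls 1 to 3, and the groups overlapped (+0.12 ± 0.11, 95% interval −0.13 to 0.36, adjusted p = 0.623). Here the array number mattered more than the group, with both arrays numbered 1 low and both numbered 3 high.

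The gene apoa1a encodes apolipoprotein A-I, the main protein of high density particles, and apoeb encodes an apolipoprotein E, the ligand of LDL family receptors. In apoa1a the intensity was 8376.12, 9939.79 and 9411.03 in morphants, against 9346.50, 9362.91 and 10425.85 in controls (−0.0066 ± 0.06, 95% interval −0.14 to 0.12). In apoeb it was 9111.69, 8620.97 and 8731.23 in morphants, against 9456.66, 9358.91 and 8887.73 in controls (−0.0057 ± 0.05, 95% interval −0.13 to 0.12). The groups overlapped in both, and the intervals run from 0.91-fold to 1.09-fold for each, so a change as large as that of tfa lies outside them. Their readings lay at 51.7 to 63.2% (apoa1a) and 51.9 to 59.3% (apoeb) of the highest reading on the array.

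**Figure D2:**
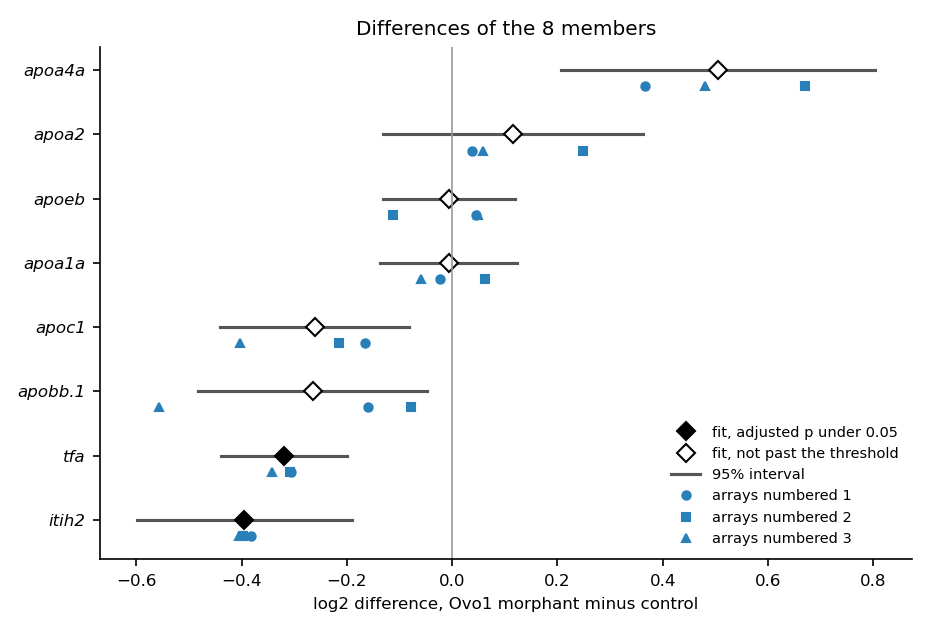
Log2 difference, Ovo1 morphant minus control, of each of the 8 genes from the fit over all arrays (diamonds, filled where the adjusted p is under 0.05, with 95% intervals), and the difference between same-numbered arrays (small markers). The 3 pair values of tfa and of itih2 lie close together, while those of apobb.1 run from −0.56 to −0.08.

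Changes of 2 genes can be set against each other within the arrays. Of the 28 pairs among the 8 genes, 14 had log2 ratios whose morphant and control arrays did not overlap, each at the smallest exact permutation p of 0.1, two-sided (adjusted p = 0.2 over the 28). The 28 ratios reuse the same 8 genes, of which 4 did not overlap singly, so they are not separate results. The share without overlap over pairs of all probe sets was not computed. Relative to apoeb, apoc1 was lower in morphants by a log2 difference of −0.26, without overlap. The apoa4a ratio to tfa was 0.82 higher in morphants, and its ratio to itih2 0.90 higher, both without overlap. That absence of overlap was fixed in advance and adds nothing. Singly, all morphants lay above all controls in apoa4a and below them in tfa and itih2. The same holds for the ratio of apoa4a to apoc1. The changes of tfa and itih2 differed from each other by 0.08 with overlapping arrays (exact p = 0.4), and those of apoc1 and apobb.1 by 0.0041 (exact p = 1). No other test was run on the pairs.

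Several apolipoprotein genes are neighbours in the genome. In the current RefSeq gene table (assembly GRCz12tu, used for gene order alone), chromosome 16 holds apoa4b.1, apoa4b.2, apoeb, apoc1, apoc4, apoa2 and apoc2 within 1 run of genes, and chromosome 19 holds apoa4a beside apoea. The neighbours apoa4b.1, apoa4b.2, apoc4 and apoc2 are named here for their place, after their values were seen. On chromosome 16 apoc1 was the one measured apolipoprotein gene whose groups did not overlap. Over all tested probe sets the share without overlap was 26%, and apoc1 was not called (adjusted p = 0.0975). The differences of the genes beside it were +0.08 ± 0.16 in apoa4b.1, +0.07 ± 0.19 in apoa4b.2, −0.03 ± 0.12 in apoc4, which read near the floor, and −0.06 ± 0.12 in apoc2, the cofactor of lipoprotein lipase, with adjusted p of at least 0.845 in each.

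On chromosome 19 the second apolipoprotein E gene, apoea, read 43.70, 33.44 and 63.22 in morphants, against 21.07, 22.05 and 32.61 in controls. Its groups did not overlap, and its difference of +0.61 ± 0.18 lies on the same side as that of apoa4a (adjusted p = 0.0935, and 0.0063 with the block). The readings of apoea are dim, below the 25th percentile of mean intensity, so the size depends on the pseudocount. The gene tomm40l on the other side of apoa4a differed by +0.09 ± 0.10 with overlapping groups. On chromosome 4 the genes next to itih2 are kin and itih5, which have no probe set here. Beyond them, atp5f1c, an ATP synthase subunit gene, stood at +0.31 ± 0.09 (adjusted p = 0.0867, and 0.00354 with the block) and tmem110l was lower (−0.57 ± 0.11, adjusted p = 0.0242). The genes tomm40l, atp5f1c and tmem110l were likewise named for their place after their values were seen. Whether probe sets of these related genes also read each other's transcripts was not tested.

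**Figure D3:**
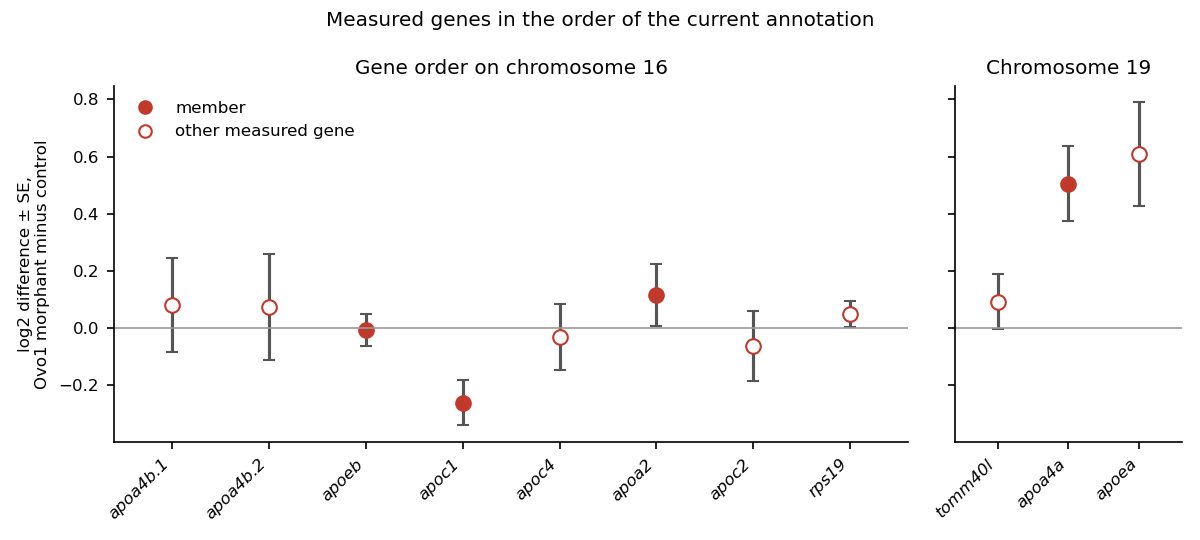
Log2 difference ± SE, Ovo1 morphant minus control (n = 3 each), of measured genes in their order on chromosome 16 (left) and chromosome 19 (right), with the genes of the described group filled. The point of apoc1 lies below 0 between apoeb and apoc4, and those of apoa4a and apoea lie above 0.

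Of the 13 measured apolipoprotein genes outside the 8 (from a list of 17), none was called (2 had an unadjusted p under 0.05 in limma), 1 was higher and 1 lower with the block, apoea and apoba, and the median difference was 0.02. Named by the smallest p after these were apool (+0.26 ± 0.14, adjusted p = 0.335), whose protein is a mitochondrial one in mammals despite its name, and apodb (−0.21 ± 0.13, 0.414). Among 18 measured genes of fatty acid binding and transport (of 34 listed), none was called on the brightest probe set of each gene (1 had an unadjusted p under 0.05 in limma). With the block 2 were higher and 2 lower, against 18.6% of all probe sets called in that fit. The fatty acid binding protein gene fabp1b.1 read 2996 ± 328 in morphants and 3887 ± 586 in controls (−0.32 ± 0.11, adjusted p = 0.140, and 0.00719 with the block). The acyl-CoA binding protein gene dbi differed by −0.19 ± 0.09 on its brighter probe set (adjusted p = 0.271, and 0.0265 with the block) and by −0.86 ± 0.14 on its dimmer one (adjusted p = 0.00970). The lipocalin gene ptgdsb.1 stood at +0.28 ± 0.14 (adjusted p = 0.289, and 0.0109 with the block), and the transporter gene slc27a6 at +0.21 ± 0.14 (0.436).

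Of 38 measured genes for other plasma proteins that the liver makes (65 listed), 1 was higher and 1 lower. Of all probe sets the main fit called 2.59% higher and 3.12% lower. The blocked fit called 11, with 4 higher and 7 lower, against 18.6% of all probe sets called in that fit. The median difference was −0.07. The higher gene was cpn1, the catalytic chain of carboxypeptidase N, which trims peptides in plasma, with 1761.94, 2016.31 and 2159.43 in morphants, against 1369.86, 1546.10 and 1524.76 in controls (+0.43 ± 0.09, adjusted p = 0.0314). The lower gene was hpxa, a haem-binding hemopexin, which read 9.13 ± 0.66 in morphants and 16.6 ± 1.54 in controls, close to the floor of the arrays (−0.37 ± 0.09, adjusted p = 0.0428). The cpn1 call ended without 5 of the 6 arrays and the hpxa call without any of the 6 (adjusted p up to 0.1202 in cpn1 and 0.132 in hpxa). Plasminogen, plg, read 33.3 ± 6.99 in morphants and 65.7 ± 22.8 in controls (−0.68 ± 0.18, adjusted p = 0.0698, and 0.0037 with the block), and its second probe set gave −0.73 ± 0.25 (0.132, and 0.0120 with the block). The complement gene c8b stood at −0.65 ± 0.19 (adjusted p = 0.0869, and 0.00379 with the block).

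**Figure D4:**
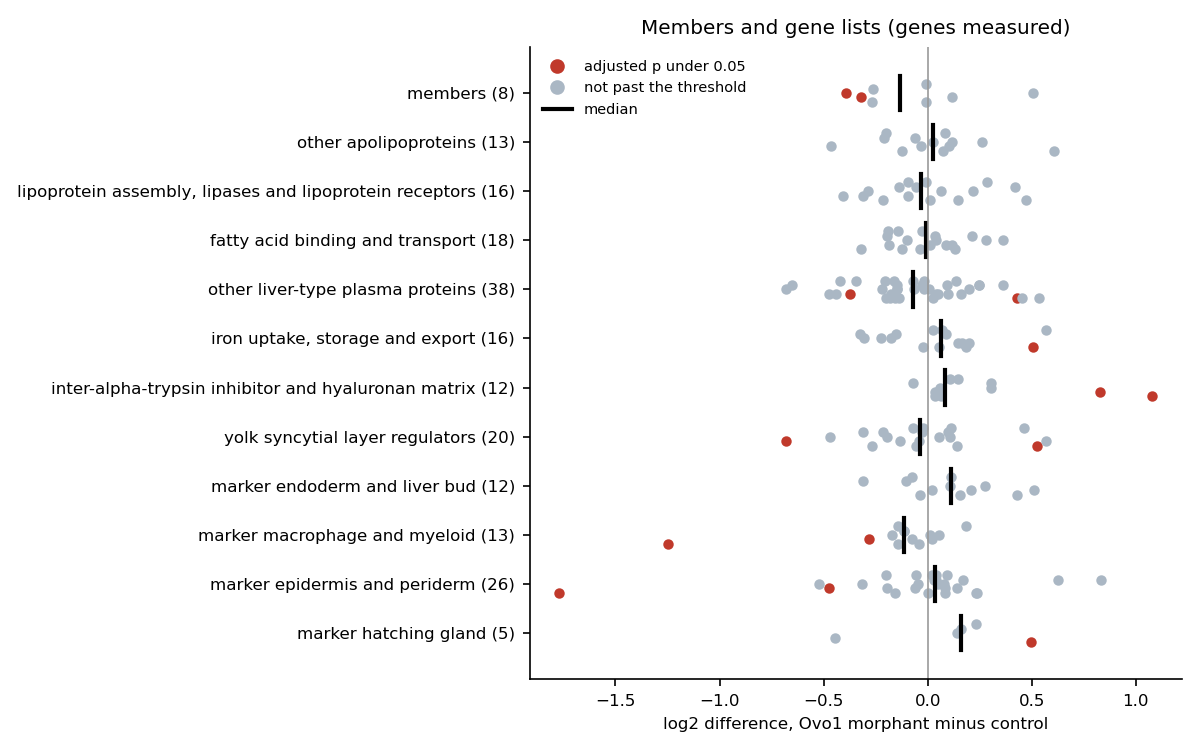
Log2 difference, Ovo1 morphant minus control, of each measured gene (points, red where the adjusted p is under 0.05) in the 8 genes described ("members") and in 11 other gene lists, with the number measured in brackets and the median as a bar. The medians lie between −0.13 and 0.16, and the 2 called genes of the top row are tfa and itih2.

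Regulators and other genes known from the yolk syncytial layer were taken from a list of 27, of which 20 were measured. Of these 1 was higher and 1 lower, against 2.59% and 3.12% of all probe sets, with a median difference of −0.04. With the block 3 were higher and 2 lower, against 18.6% of all probe sets called in that fit. The iron exporter gene slc40a1 counts both here and in the iron list, and is named after its values were seen. It did not pass (+0.57 ± 0.26, adjusted p = 0.258, and 0.0118 with the block). The nuclear receptor gene hnf4b, of a family that drives apolipoprotein and transferrin genes in mammalian liver, read 191.71, 247.16 and 261.26 in morphants, against 307.47, 438.07 and 414.31 in controls (−0.68 ± 0.16, adjusted p = 0.0427). Its paralogue hnf4a read 123 in morphants and 138 in controls on average (−0.13 ± 0.16, adjusted p = 0.715) and is named as the paralogue, after its values were seen. The leucine zipper gene cebpb was higher, with 773.43, 1058.02 and 943.99 in morphants, against 597.22, 656.09 and 686.20 in controls (+0.53 ± 0.11, adjusted p = 0.0309). These calls ended without 4 of the 6 arrays in hnf4b and 5 in cebpb (adjusted p up to 0.167 and 0.132). The zinc finger gene znfl2a (−0.47 ± 0.16, adjusted p = 0.123, and 0.0172 with the block) and gata6 (−0.31 ± 0.13, 0.197) did not pass. The homeobox gene mxtx2, which specifies the layer earlier in development, read 28.7 in morphants and 29.8 in controls on average. It is named after its values were seen. These readings are dim, below the 25th percentile of mean intensity, whereas 17 of the 20 measured genes of the list read above it. The summed intensity of the 20 genes was 7534.1 to 8786.8 in morphants and 7867.2 to 9125.2 in controls.

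Other cell types also express some of the 8 genes, among them macrophages (apoc1, apoeb), epidermis (apoeb) and endoderm. Of 13 measured macrophage and myeloid markers, 2 were lower and 0 higher, against 3.12% and 2.59% of all probe sets. The summed intensity of the 13 was 7574.9 to 8133.0 in morphants and 9584.3 to 10519.9 in controls, without overlap. Without the 2 called genes the sum of the other 11 overlapped between the groups, at 1740.2 to 2484.7 in morphants and 1932.3 to 2592.4 in controls. The 2 were left out because they were called on these same arrays, which favours overlap in the rest. They were lcp1, a leukocyte actin-bundling gene (−1.25 ± 0.23, adjusted p = 0.0187), and the cathepsin S gene ctss2.1 (−0.28 ± 0.06, adjusted p = 0.0366). Bright probe sets dominate such a sum, and ctss2.1 alone averaged 4876 in morphants and 6057 in controls. The lcp1 call ended without control replicate 1 or 2 (adjusted p up to 0.0899). The ctss2.1 call ended without any single array except Ovo1 morphant replicate 1 (up to 0.146), with median centring (0.122) and without the intensity trend (0.137). The macrophage regulator spi1b, named after its values were seen, read 29.3 in morphants and 29.6 in controls and csf1ra 14.2 and 17.0, both below the 25th percentile. The markers ptprc, marco and mpx, also named after their values were seen, were below it too. Of the 13 markers 8 read above it. No myeloid marker was listed at 0 on any array, which by itself does not show that it was expressed. The next by p was ctss2.2 at −0.17 ± 0.13 (adjusted p = 0.526). The part of these markers in the apoc1 difference was not tested.

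Of 26 measured epidermal and periderm markers, 2 were lower and 0 higher, anxa1c (−1.77 ± 0.18, adjusted p = 0.001) and tp63 (−0.48 ± 0.09, 0.0181). Of all probe sets the main fit called 3.12% lower and 2.59% higher. Among the 26, 16 differences lay above 0 and 10 below, with a median of 0.03. In the blocked fit, which called 18.6% of all probe sets, 3 were higher and 3 lower. The tp63 call held without Ovo1 morphant replicate 1 and ended without each of the other 5 arrays (adjusted p up to 0.117), while leaving out any 1 array did not end the anxa1c call. The summed intensity was 81032.0 to 90047.1 in morphants and 86078.3 to 89930.3 in controls, which overlap. A second tp63 probe set stood at −0.17 ± 0.12 (adjusted p = 0.466), while evpla (−0.52 ± 0.20, 0.167, and 0.0208 with the block) and icn (+0.63 ± 0.26, 0.203, and 0.00075 with the block) did not pass. Of 12 endoderm and liver bud markers none was called (4 had an unadjusted p under 0.05 in limma), 3 were higher with the block, and the median was 0.11. The 3 were foxa3 (+0.43 ± 0.11, adjusted p = 0.0547, and 0.00774 with the block), prox1a (+0.51 ± 0.14, 0.0797 and 0.0192) and foxa2 (+0.28 ± 0.10, 0.160 and 0.0410). The other of the 4, gata6, was on the lower side (−0.31 ± 0.13, adjusted p = 0.197). In this list 8 differences lay above 0 and 4 below. The sum was 4013.0 to 4717.5 in morphants and 3916.1 to 4258.4 in controls. Of 5 hatching gland genes klf17 was higher (+0.50 ± 0.10, adjusted p = 0.0253), a call that ended without 4 of the 6 arrays, Ovo1 morphant replicate 2 or any 1 control (up to 0.122), and with median centring (0.0558). The others named did not pass. Of them, ctsl.1 stood at −0.45 ± 0.15 (0.131, and 0.0165 with the block), xbp1 at +0.14 ± 0.08 (0.401) and cd63 at +0.16 ± 0.10 (0.409), and the sum was 6073.3 to 7584.1 in morphants and 6181.6 to 6558.6 in controls. The part of these markers in the differences of the 8 genes was not tested.

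The genes whose values ran most like those of a described gene over the 6 arrays were found by Pearson's r on normalized log2 values, among named genes above the 25th percentile whose range was at least 0.5 times as wide. The 6 points share the group difference and the array numbers, so r is a description. For tfa they were inaa, mcrip1 and tmem129 (r between 0.996 and 0.997), with differences of −0.84, −0.74 and −0.51. For itih2 they were flot2a, esrp2 and itsn2b (r between 0.997 and 0.999), with differences of −0.66, −0.62 and −0.91. For apoa4a they were stk36, aldh7a1 and zgc:112980 (r between 0.992 and 0.998, differences +0.62, +0.25 and +0.35), and for apoc1 cul4b, eif3ja and sf3a3 (r between 0.991 and 0.996, differences −0.30, −0.56 and −0.41). For apobb.1 they were ighmbp2, wu:fk47c06 and gpm6bb (r between 0.967 and 0.9749). For apoa1a they were sdc2, podxl and znf76 (r between 0.990 and 0.995, differences −0.0078, +0.0051 and −0.02), and for apoeb abcf2a, bco2a and f11r.1 (r between 0.969 and 0.995, differences −0.0088, −0.07 and −0.02). For apoa2 they were bmal1a, cldn3d and dpysl3 (r between 0.981 and 0.990), with differences of +0.07, +0.36 and +0.15, none of which passed the test (adjusted p of at least 0.654).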

How the data were processed

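The authors deposited 1 linear intensity per probe set and array. The submitters' processing notes name PLIER and Affymetrix Expression Console 1.1. Settings for background, normalization and offset were not found in the labels or file headers. After 115 Affymetrix control probe sets were left out, 15502 were kept, without a filter. Array medians spanned 0.19 on the log2 scale, so log2(intensity + 16) values were quantile normalized. The pseudocount of 16 shrinks changes of dim probe sets. Genes were named from the platform annotation (10795 probe sets with 1 symbol, 135 with several, 4572 with none), with symbols updated by gene ID. The brightest probe set stands for a list gene. Morphants minus controls were fitted with limma 3.58.1 in R 4.3.3 (eBayes with intensity trend), and p-values were adjusted by Benjamini-Hochberg across the 15502. The fit was tested on data simulated without array pairs, where it missed most small changes and part of the log2 changes of 1. A first bar for recovery at a log2 change of 1 was not met and was replaced after this was seen. Missing the threshold therefore does not show that a gene kept its level.

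The genes, lists and tests were chosen with earlier results of these data known. Named genes are the 8 described, in each list every called gene and up to 4 by smallest p, and the 3 most alike per described gene. Some further genes were named for their place, kinship, role or pattern, after their values were seen. The deviations of same-numbered arrays from the means of their groups correlated at r = 0.58, 0.46 and 0.54, above the limit of 0.1 for each pair. The replicate numbers were therefore taken to pair the arrays. The labels state no pairing, and arrays with unlike numbers were not compared in this way. The blocked p-values thus rest on an assumed pairing. Among the fits the blocked one alone used this pairing. The main fit left it out, and so do the SEs, intervals and calls given without mention of the block. The main fit called 886 of all probe sets, against 2891 in the blocked fit. Blocked values stand where they change a call. Fits without 1 array used no block. Figures were drawn with matplotlib 3.10.9.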

Additional observations from a re-analysis of the deposited data

How the results depend on the processing

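Without each array in turn, the number of all probe sets called ran from 267 (without control replicate 3) to 1717 (without Ovo1 morphant replicate 1), and the number of the 8 genes called from 0 (without control replicate 2 or 3) to 4 (without Ovo1 morphant replicate 1). Over those 6 fits the log2 difference ran from −0.347 to −0.297 in tfa, −0.420 to −0.374 in itih2, −0.332 to −0.173 in apoc1 and 0.455 to 0.599 in apoa4a. It crossed 0 in apoa1a (−0.0366 to 0.0430, above 0 at 0.0317 without Ovo1 morphant replicate 1) and in apoeb (−0.0495 to 0.0396, and 0.0123 and 0.0019 without control replicate 1 or 2), which were called in none. The called genes per list ran from 0 to 1 in fatty acid transport and hatching gland, 0 to 2 in iron handling, lipoprotein assembly, endoderm, macrophage and plasma proteins, 1 to 5 in epidermis and 0 to 5 in yolk layer genes. Over all probe sets the main fit called 886, against 700 with the values as deposited, 722 with median centring and 794 without the trend. A pseudocount of 1 called 860, robust estimation 923, and the fit with dim probe sets left out 958 of those kept. The values as deposited called 1 of the 8 (tfa, and not itih2 at −0.414, adjusted p = 0.0509) and 0 plasma protein and 0 yolk layer genes. Median centring called 0 of the 8 (tfa −0.355, itih2 −0.407), 0 plasma protein, 1 yolk layer, 1 macrophage and 0 hatching gland genes. With dim probe sets left out apoa4a was called (0.505), with 1 plasma protein, 1 hyaluronan and 1 endoderm gene. Without the trend apoa4a was called (0.505) and tfa was not (−0.319), with 0 plasma protein genes and 1 macrophage gene. A pseudocount of 1 left 1 plasma protein gene, and robust estimation added 1 endoderm gene. With each gene's probe sets averaged, 1 fatty acid gene and 1 epidermal gene were called. The replicate block called 2891 probe sets and 4 of the 8 genes, with apoa4a at 0.505 and apoc1 at −0.261, and 2 other apolipoprotein, 3 assembly, 4 fatty acid, 11 plasma protein, 4 iron, 5 yolk layer, 3 endoderm, 6 epidermal and 2 hatching gland genes. The blocked fit changed no call of tfa or itih2. Causes of these shifts were not tested beyond what each setting does by construction.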

Other observations

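Some plasma protein genes differed more between array numbers than between the groups. The fibrinogen chain genes fga and fgb and the retinol carrier rbp4, picked after their values were seen, read highest on the arrays numbered 3 of both groups. In fga the intensity was 61.89, 76.35 and 151.63 in morphants 1 to 3, against 63.04, 63.52 and 158.22 in controls 1 to 3 (log2 +0.05 ± 0.33). In fgb it was 44.31, 128.14 and 182.43 in morphants, against 101.15, 108.86 and 269.35 in controls (−0.44 ± 0.44). In rbp4 it was 429.36, 536.52 and 897.91 in morphants, against 393.72, 338.18 and 729.64 in controls (+0.36 ± 0.30, adjusted p = 0.555, and 0.0256 with the replicate block). The transferrin-like gene meltf ran the other way, with 296.28, 220.32 and 84.45 in morphants, against 282.14, 325.85 and 128.32 in controls. Among the 8 genes described, apoa2 had the same order of arrays as rbp4 in morphants, with its highest control also on the array numbered 3. What the array number stands for is not given in the labels.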
